A study of Saccharomyces cerevisiae with 5 samples.

Results

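The PIR cell wall proteins of Saccharomyces cerevisiae are encoded by PIR1 (YKL164C), HSP150 (YJL159W), PIR3 (YKL163W) and CIS3 (YJL158C). Their spots were chosen by gene name or open reading frame, which gave 4 of the 6256 genes on the array. Their transcripts were measured in a chs2Δ strain and in the wild type from which it was made, on 5 two-colour oligonucleotide arrays that each held RNA of 1 culture per strain. The chs2Δ strain, YFR23, carried a KANMX4 cassette in place of CHS2, the gene of chitin synthase II, which makes the chitin of the primary septum. The wild type, labelled MGD353, was its haploid parent. Both strains were MATα, carried the same mutant alleles of TRP1, URA3, LEU2 and HIS3, and were ADE+ ARG cyhR. Cultures of both had grown overnight at 26 °C. The paper names complete synthetic medium and the same medium without histidine, and the labels do not say which culture had which. With a mutant HIS3 and no histidine marker in its listed genotype, neither strain should grow without histidine. Only 1 chs2Δ strain was compared, so the deletion and anything else in which that strain differs from its parent cannot be told apart. A ratio gives the share of a transcript in the RNA of a culture, so fewer cells that express a gene and less RNA of that gene per cell cannot be told apart either.

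PIR stands for proteins with internal repeats. They enter the secretory pathway, are heavily O-mannosylated, are cut by the Kex2 protease in the Golgi, and are bound to the beta-1,3-glucan of the wall through an alkali-sensitive ester linkage that involves the repeats. They add to the strength of the wall and lower its permeability. Several PIR genes are transcribed at the end of mitosis, when daughter cells separate, and several are targets of the cell wall integrity pathway, in which the kinase Slt2 acts on the transcription factor Rlm1.

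On every array the chs2Δ channel was dimmer than the wild-type channel, with a median signal of 77.5 to 197 intensity units above local background, against 213 to 431 in wild type. Between 73.9% and 83.2% of the gene spots were above background in chs2Δ, against 89.1% to 94.3% in wild type. The chs2Δ RNA was labeled with Cy5 on arrays 1, 3 and 5 and with Cy3 on arrays 2 and 4. Array 1 was on a slide of its own, while arrays 2 and 3 shared a slide, as did arrays 4 and 5. CHS2, the deleted gene, had log2 ratios of -0.35, -0.57, -0.95, -1.63 and -0.57 on arrays 1 to 5 and a mean fold of 0.569 (limma, adjusted p = 0.0024), and its signal in the chs2Δ channel was still above background on 4 of the 5 arrays. The labels do not say which part of CHS2 its probes cover. The array titles carry the name of a myo1Δ strain, while the label of each channel names YFR23 or the wild type. MYO1, the myosin II gene, had log2 ratios of -0.43 to -0.18, with a mean fold of 0.805 (limma, adjusted p = 0.0012).

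After loess normalization, which depends on spot intensity, 3 of the PIR genes were higher in chs2Δ, to very unequal extents. PIR3 was 13.1-fold higher than in wild type, HSP150 3.75-fold and PIR1 1.79-fold, while CIS3 stood at 1.19-fold and did not pass the test. The 3 genes were called at a Benjamini-Hochberg adjusted p below 0.05 in limma's moderated test over all genes. Of the 6246 genes tested, 71.6% were called in either direction, 35.7% higher and 35.9% lower, and the count of called PIR genes is to be read against these shares. A rise of at least 2-fold was less common: it was called for 10.3% of the genes tested, and PIR3 and HSP150 were among these. The median log2 ratio was 1.37 over the PIR genes and -0.00305 over all genes tested. With each array centred on its median in place of loess, PIR3 and HSP150 were still called higher. PIR1 was then not called, and CIS3 was called lower.

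PIR3, a known target of Rlm1, was the gene of this family that changed most. Before normalization its spot read 1395, 1955, 1300, 1244 and 1401 intensity units above background in chs2Δ on arrays 1 to 5, against 558, 335, 353, 513 and 250.0 units in wild type. All 5 chs2Δ values lay above all 5 wild-type values, although the chs2Δ channel had the lower median signal on each array. After normalization its log2 ratios of chs2Δ over wild type were 3.68, 3.61, 3.90, 3.69 and 3.71, with a mean of 3.72 ± 0.11 (SD, n = 5 arrays; SE 0.06; limma, adjusted p = 2.3e-08). The fold on single arrays ran from 12.2 to 14.9, and the mean log2 ratio was 3.76 on the Cy5 arrays and 3.65 on the Cy3 arrays. Among the 6246 genes tested PIR3 ranked 13 by ratio. With each array centred on its median it was 8.25-fold higher. It has 1 spot on the array, so no second spot can be set beside it.

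HSP150, also called PIR2, encodes a heat-inducible PIR glycoprotein that is in part released into the medium. Its signals were 1676, 2896, 1948, 1799 and 2476 units above background in chs2Δ, against 2910, 2068, 2182, 3225 and 1835 units in wild type. Before normalization the ranges overlapped, and chs2Δ was the brighter channel on arrays 2 and 5 only. The normalized log2 ratios were 1.66, 1.83, 2.06, 1.91 and 2.08, all well above 0, with a mean of 1.91 ± 0.17 (SD, n = 5 arrays; SE 0.07; limma, adjusted p = 4.0e-07). Its Cy5 and Cy3 arrays gave nearly the same mean log2 ratio, 1.93 and 1.87. Its spots differed by 0.10 to 0.30 in log2 ratio on an array. By ratio it was the gene of rank 152, above 97.6% of the genes tested, and median centring gave a 2.08-fold rise.

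**Figure D1:**
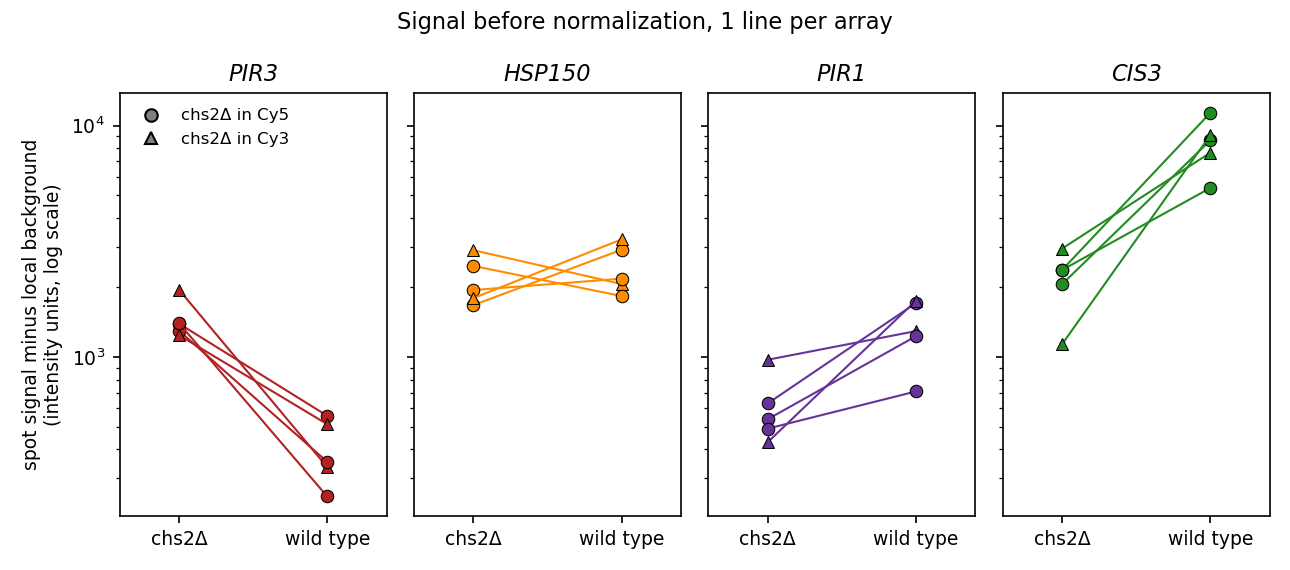
Signal above local background before normalization for PIR3, HSP150, PIR1 and CIS3 (vertical axis, intensity units, log scale), with chs2Δ on the left and wild type on the right of each panel and 1 line per array. Circles mark arrays with chs2Δ in Cy5 and triangles those with chs2Δ in Cy3. All lines fall to the right for PIR3 and rise to the right for PIR1 and CIS3, and those of HSP150 cross.

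PIR1 encodes a PIR protein that is found at bud scars, the chitin-rich marks left by cell division. Its signals were 631, 974, 539, 429 and 491 units above background in chs2Δ, against 1713, 1295, 1232, 1755 and 711 units in wild type. Here the chs2Δ channel was dimmer on all 5 arrays before normalization, with a raw ratio of 0.245 to 0.752, and the ranges overlapped only through array 2 in chs2Δ and array 5 in wild type. Normalization set this against the other spots of like brightness, which gave log2 ratios of 1.03, 0.81, 0.95, 0.51 and 0.90. The mean was 0.84 ± 0.20 (SD, n = 5 arrays; SE 0.08; limma, adjusted p = 2.4e-05), above 87.2% of the genes tested. The rise rested on this intensity-dependent normalization: when each array was centred on its median instead, PIR1 had a log2 ratio of 0.15 and was not called (adjusted p = 0.194).

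Array 4 gave the lowest PIR1 ratio. Its spots of PIR1 read log2 ratios of 0.87 and 0.15, a difference of 0.72, while on the other arrays they differed by 0.06 to 0.12. The Cy5 arrays had a mean log2 ratio of 0.96 and the Cy3 arrays 0.66, and the lowest Cy5 array stood above the higher Cy3 array. A dye term had an unadjusted p of 0.0383 for PIR1 in limma and an adjusted p of 0.217. Over all genes no dye term in limma passed the adjusted threshold, and 1279 of 6236 genes had an unadjusted dye p below 0.05.

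CIS3, also called PIR4 and an abundant protein of the wall, was the PIR gene for which no change was called. Its signals were 2381, 2944, 2067, 1138 and 2379 units above background in chs2Δ, against 11368, 7643, 8650, 9109 and 5382 units in wild type. These raw signals did not overlap, and chs2Δ was the dimmer channel on all 5 arrays, with a raw ratio of 0.125 to 0.442. Normalized log2 ratios were 0.34, 0.16, 0.34, -0.19 and 0.64, so 4 arrays were above 0 and array 4 below it. The mean was 0.26 ± 0.30 (SD, n = 5 arrays; SE 0.11; limma, adjusted p = 0.0587), which missed the threshold. A p of this size does not show that CIS3 was unchanged.

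The direction of CIS3 depended on how the arrays were put on a common scale. Centring each array on its median gave a log2 ratio of -0.73 and a call of lower expression in chs2Δ (adjusted p = 6.1e-04). With the intensity-dependent normalization but without array 4, the log2 ratio of CIS3 was 0.37 and passed the test (adjusted p = 0.00605). On array 4 the CIS3 spots had log2 ratios of 0.065 and -0.45. The second CIS3 spot was flagged as poor on arrays 3 and 5 and was left out there. As for PIR1, the Cy5 arrays stood above the Cy3 arrays, with mean log2 ratios of 0.44 and -0.016 (dye term in limma, unadjusted p = 0.0179, adjusted p = 0.176). A fit with a dye term gave CIS3 a log2 ratio of 0.21 that passed the test.

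**Figure D2:**
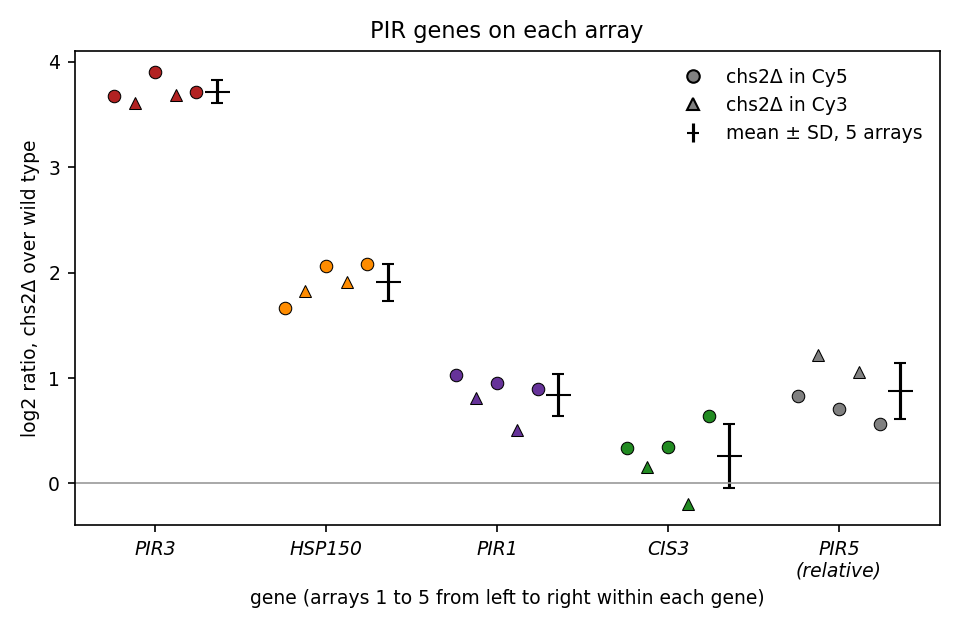
Normalized log2 ratio of chs2Δ over wild type on each of the 5 arrays for the PIR genes and their relative PIR5 (vertical axis), arrays 1 to 5 from left to right within each gene. Circles are arrays with chs2Δ in Cy5, triangles arrays with chs2Δ in Cy3, and crosses with bars the mean ± SD. PIR3, HSP150 and PIR1 lie above 0 on all 5 arrays, and CIS3 has 1 array below 0.

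All 35 spot measurements of the PIR genes, on 7 spots, were above background in both channels and unsaturated, and 2 of them were left out as poor. Their ratios therefore came from measured signal on both sides. The PIR genes and PIR5 are related in sequence and the probe sequences were not at hand. Whether their spots share signal was not tested. Spread between arrays was smallest for PIR3, with an SD of 0.11 on the log2 scale, and largest for CIS3 with 0.30.

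The order of the ratios, PIR3 above HSP150 above PIR1 above CIS3, was the same on every array. Within an array PIR3 exceeded HSP150 by 1.63 to 2.02 on the log2 scale, with a mean difference of 1.81 (SE 0.06), a 3.50-fold larger rise. The difference between HSP150 and PIR1 ranged from 0.63 to 1.40 and averaged 1.07 (SE 0.13), or 2.10-fold. Between PIR1 and CIS3 it ranged from 0.26 to 0.70 and averaged 0.58 (SE 0.08), or 1.50-fold. The ends of the order, PIR3 and CIS3, lay 3.46 apart on the log2 scale (SE 0.13), or 11.0-fold. In a two-sided exact sign-flip test over the 5 arrays each of the 6 pairs had p = 0.0625, also after adjustment over the pairs, which is the smallest p that 5 arrays allow and cannot reach 0.05. No pair changed its order in any of 132 further values from other ways of processing, median centring included. Many of these values average fewer of the same array ratios or regroup them. They had to keep an order that was the same on every array, so they add no support.

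**Figure D3:**
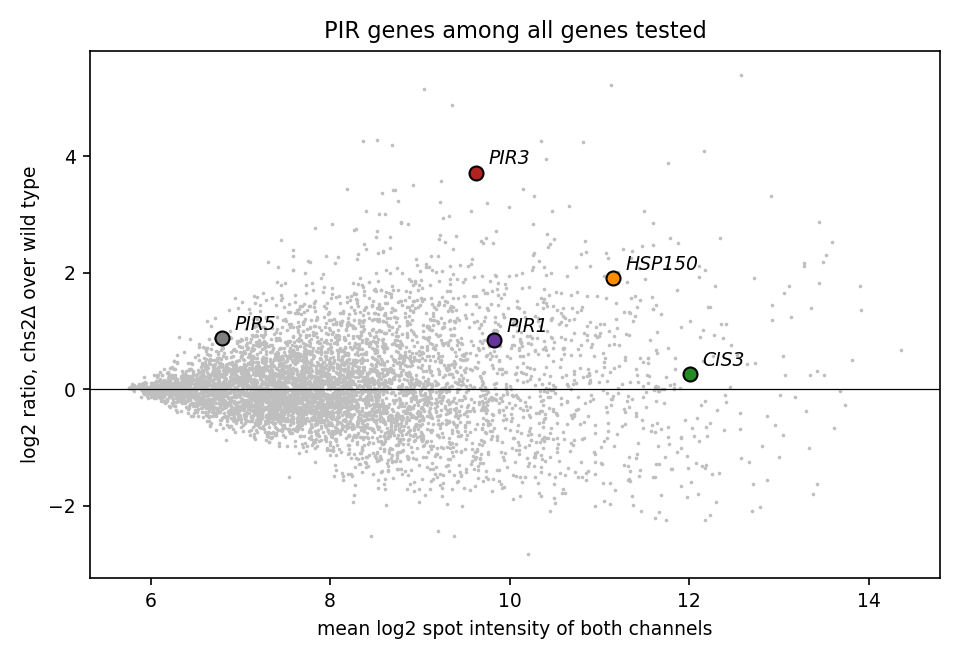
Mean log2 ratio of chs2Δ over wild type (vertical axis) against the mean log2 spot intensity of both channels (horizontal axis) for the genes tested, 1 grey point per gene, with the PIR genes and PIR5 named. PIR3 lies near the top of the cloud at its intensity, HSP150 in its upper part, and CIS3 close to the line at 0.

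In the yeast gene table of RefSeq assembly R64, which served for names and neighbours alone, the PIR genes lie in pairs. PIR1 and PIR3 are next to each other on chromosome XI and are transcribed away from each other, so they share the region between their starts. Here PIR3 stood above PIR1 by 2.65 to 3.18 on the log2 scale on single arrays, a mean of 2.88 (SE 0.09) or 7.34-fold. HSP150 and CIS3 are next to each other on chromosome X and are transcribed toward each other, and HSP150 exceeded CIS3 by 1.32 to 2.10, a mean of 1.65 (SE 0.13) or 3.14-fold. Neighbours in the genome were no closer in their ratios than PIR1 and CIS3, which lie on different chromosomes.

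PIR5 (YJL160C), a sequence relative of the family, lies on the other side of HSP150 and is transcribed away from it. It was dim in both strains, at 50.9 to 171 units above background in chs2Δ, against 47.3 to 116 units in wild type. Its log2 ratios were 0.83, 1.22, 0.71, 1.05 and 0.56, with a mean of 0.88 (SE 0.10; limma, adjusted p = 5.8e-05), or 1.83-fold. For a gene this dim the size depended on the background: the log2 ratio of PIR5 was 0.36 with no background correction (1.28-fold), 1.42 with plain subtraction (2.67-fold) and 1.74 with a normexp offset of 0 (3.33-fold), called higher each time. Here the Cy3 arrays were the higher ones, with a mean of 1.14 and that of the Cy5 arrays 0.70 (dye term, unadjusted p = 0.00703, adjusted p = 0.141). FAR1, the inhibitor of the cell cycle kinase in the mating response, lies next to CIS3 and fell to 0.415-fold (log2 ratio -1.27, adjusted p = 2.2e-06), with the same direction under median centring. YKL162C beside PIR3 had a log2 ratio of -0.14 and was not called (adjusted p = 0.0687), while under median centring the log2 ratio of YKL162C was 0.47 and it was called higher (adjusted p = 6.6e-04). Its signal in chs2Δ was not above background on any of the 5 arrays, so its ratio says little.

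Wall proteins with a GPI anchor are the other covalently bound class, attached to beta-1,6-glucan. The list used for them held 25 genes, among them YPS1, YPS3 and PLB2, which encode cell surface enzymes. Of these 25 genes 24 were tested, and 17 were called higher (70.8%, against 35.7% of all genes), 1 lower and 6 not. YPS1 and YPS3 were among those called higher. The median log2 ratio of the list was 0.47. DAN1, FLO9 and FLO10, among the 6 not called, were not above background in chs2Δ on any array. Under median centring the split was 11 higher and 6 lower. The flocculin FLO1 rose most, 11.4-fold (log2 ratio 3.51; limma, adjusted p = 9.1e-08). It belongs to a family of similar genes, and whether their spots share signal was not tested. FLO5, FLO9, FLO10 and FLO11 stood at 1.14-fold, 0.960-fold, 0.917-fold and 1.04-fold. TIR2 rose 3.42-fold and PST1 3.31-fold, and both were also called higher under median centring. TIP1, a wall mannoprotein induced by cold, fell to 0.570-fold. Ranked by ratio together with these 24 genes, PIR3 had rank 1 of 28, FLO1 rank 2, HSP150 rank 3, PIR1 rank 12 and CIS3 rank 20.

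Genes for beta-1,3-glucan, the polymer to which PIR proteins are bound, moved both ways. Of 20 tested, 11 were called higher (55%), 5 lower (25%) and 4 not, against 35.7% higher and 35.9% lower over all genes. In either direction 80% of these glucan genes were called, against 71.6% of all genes. Their median was 0.16, and under median centring the split was 5 higher and 10 lower. SCW4, a glucanase-like wall protein, rose 4.31-fold, and its paralog SCW10 fell to 0.445-fold. GSC2, the glucan synthase subunit induced under wall stress, rose 3.87-fold, while FKS1, the subunit used in unstressed growth, fell to 0.661-fold. CRH1, which joins chitin to glucan, rose 2.98-fold. These 5 genes kept their direction and their call under median centring.

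**Figure D4:**
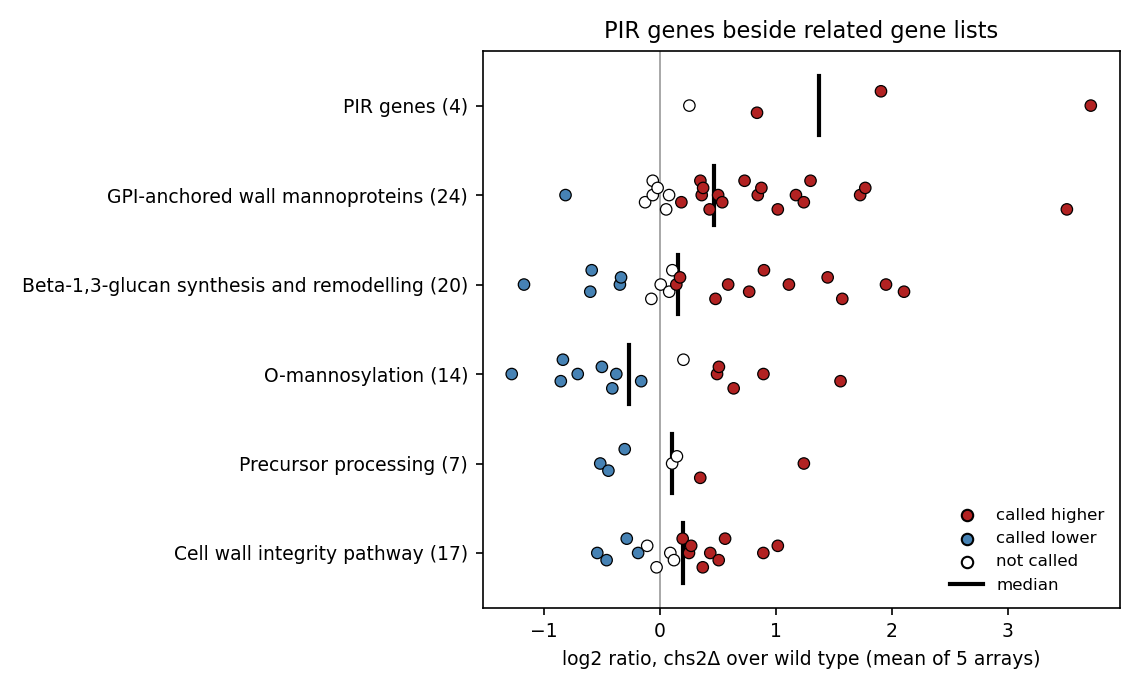
Mean log2 ratio of chs2Δ over wild type (horizontal axis) for each gene of 6 lists, with the number of genes tested in brackets. Red points were called higher in chs2Δ, blue lower, white not called, and the black bar is the median of the list, which is 1.37 for the PIR genes and 0.47 for the GPI-anchored wall proteins.

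The enzymes that make PIR precursors ready for the wall also moved both ways. Of 14 genes of O-mannosylation, 5 were called higher, 8 lower and 1 not, that is 35.7% higher and 57.1% lower, against 35.7% and 35.9% of all genes, with a median of -0.27 (2 higher and 8 lower under median centring). The mannosyltransferase gene PMT6 rose 2.95-fold, while PMT4 fell to 0.413-fold. PMT2 and the later-acting KRE2 fell to 0.754-fold and 0.708-fold. Of 7 genes for signal peptidase and Golgi proteases, 2 were called higher, 3 lower and 2 not (2 higher and 4 lower under median centring), with a median of 0.11. These called genes made up 71.4% of the list, close to the share over all genes. KEX2, whose product cuts PIR precursors, fell to 0.812-fold (log2 ratio -0.30, adjusted p = 0.0016). The signal peptidase subunit gene SPC2 rose 2.37-fold and SPC3, for another subunit, fell to 0.701-fold.

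Among 17 genes of the cell wall integrity pathway, 9 were called higher (52.9%), 4 lower (23.5%) and 4 not. Over all genes 35.7% were called higher and 35.9% lower. In either direction 76.5% of these pathway genes were called, against 71.6% of all genes. Their median was 0.20, and under median centring 5 were called higher and 7 lower. RLM1, the factor that acts on PIR genes, rose 2.03-fold (log2 ratio 1.02, adjusted p = 6.8e-06), and by 0.55 on the log2 scale under median centring. SLT2, the kinase upstream of it, had a log2 ratio of 0.37 (1.29-fold, adjusted p = 0.0016), while under median centring it was called lower, with a log2 ratio of -0.35 (adjusted p = 0.0028). SWI6, a partner of the factor Swi4, fell to 0.689-fold.

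Among transcription factors tied to PIR or wall stress genes, SOK2 rose 2.75-fold and the stress factor MSN4 2.26-fold, and both were also called higher under median centring. They were picked as the largest rises among these factors. HSF1 and MSN2 had log2 ratios of 0.24 and 0.13 and were called higher, while SKN7 had -0.090 and was not called. Under median centring HSF1 was again called higher, while MSN2 had a log2 ratio of -0.016 and was not called. Over all genes 35.7% were called higher, so such calls were common. SWI5, which drives genes at the end of mitosis, had a log2 ratio of 0.38 (limma, adjusted p = 0.0113) and -0.037 under median centring. On single arrays the log2 ratio of SWI5 was 0.12, 0.18 and 0.18 with chs2Δ in Cy5, and 0.64 and 0.75 with chs2Δ in Cy3. SIC1, a gene expressed at the end of mitosis whose product holds back the cell cycle kinase, rose 4.27-fold, and by 1.39 on the log2 scale under median centring. It rose most of the genes of that time that were looked at. Others were called higher, called lower or not called, so SIC1 does not stand for them.

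The genes whose 5 ratios were most like those of a PIR gene were found by the root mean square difference over the arrays, among 6078 genes, the PIR genes left out. For PIR3 the nearest were HMX1, for heme oxygenase, at 0.262, FLO1 at 0.284 and GUT2, for a mitochondrial glycerol 3-phosphate dehydrogenase, at 0.464. For HSP150 they were CPP1 at 0.0886, NNR2 at 0.0992 and YOR385W at 0.128. The nearest to PIR1 were GMC1 at 0.0714, YKL222C at 0.0763 and INA1 at 0.0780, and to CIS3 they were YJL120W at 0.0943, YML094C-A at 0.109 and YSA1 at 0.115. PIR genes were farther from each other than these: the closest pair, PIR1 and CIS3, differed by 0.606, and PIR3 and CIS3 by 3.47. The nearest genes were picked as the smallest differences among 6078 genes, so this outcome was largely set by the selection. The measure takes in the mean ratio as well as the pattern over the arrays.

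**Figure D5:**
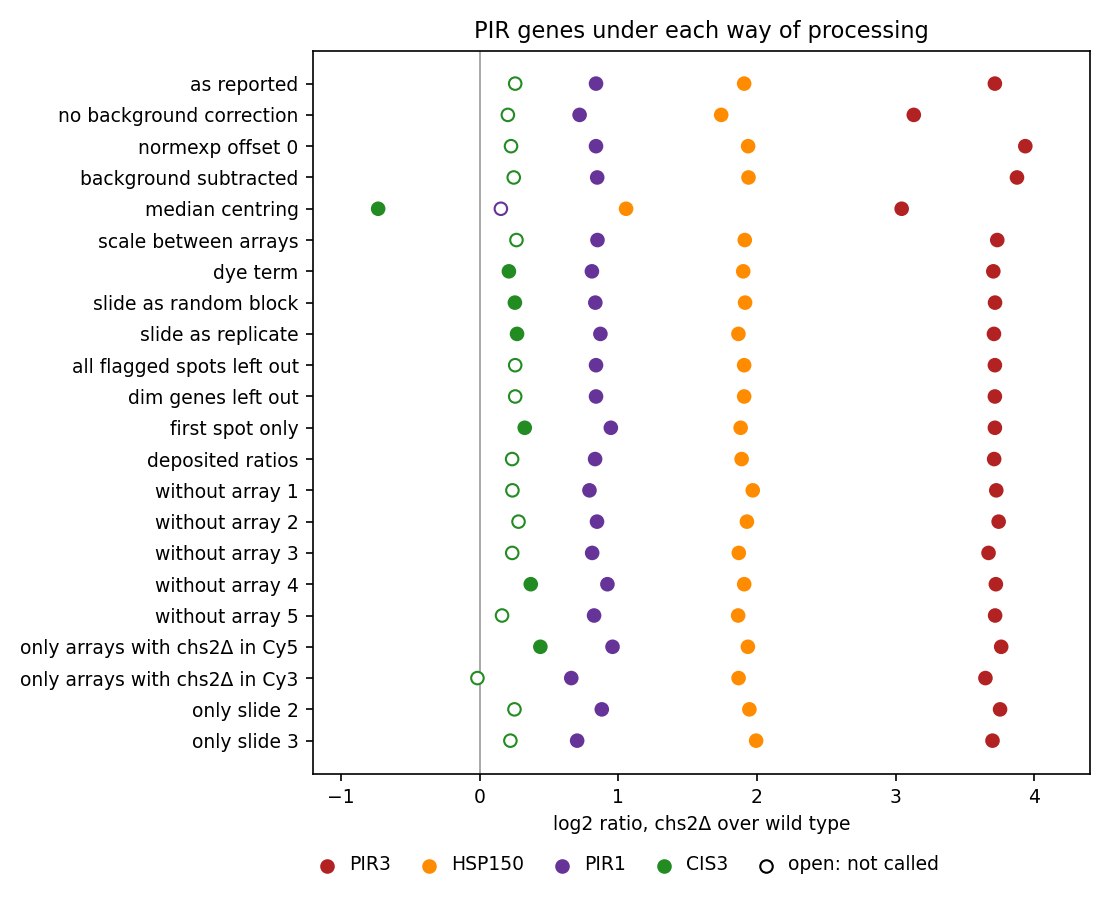
Log2 ratio of chs2Δ over wild type (horizontal axis) of each PIR gene under each way of processing the arrays (rows), with open circles where the gene was not called. PIR3 stays between 3.04 and 3.94 and HSP150 between 1.06 and 1.99, while PIR1 falls to 0.15 and CIS3 to -0.73 under median centring.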

How the data were processed

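The 10 deposited scanner files, 1 per array and dye, hold spot intensity, local background and flags as the authors quantified them with ImaGene, with no correction applied. The file headers give ImaGene 6.0.0, while the labels name an earlier version. The authors also deposited log2 ratios of Cy5 over Cy3, background-corrected and lowess-normalized in limma and not turned for dye, which correlated at 0.9995 or more with the ratios recomputed here and served as an alternative. Their columns are centred near 0, from -0.0151 to 0.0153.

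Ratios were computed with limma 3.58.1, run in R 4.3.3 beside jsonlite 2.0.0 and statmod 1.5.0. Poor spots (111 to 244 gene spots per array) were left out, background was corrected by normexp with an offset of 50, loess with a span of 0.3 was fitted within each array on gene spots, and every ratio was set as chs2Δ over wild type. The 10263 gene spots were averaged over 6256 genes, of which 5756 had a name in RefSeq assembly R64, 500 kept the name on the array and 10 had no usable spot. lmFit and eBayes were fitted over 5 arrays, with Benjamini-Hochberg adjustment over 6246 genes and calls below 0.05. The SE printed with a limma p is the moderated SE of that fit. It draws the spread of each gene toward that of all genes, so it does not follow from the SD printed beside it. The SE of a difference between PIR genes is the plain SE over the 5 arrays. Above background means more than 2 background SD over the local background median. Saturated spots numbered 0 to 2 per array in chs2Δ and 3 to 22 in wild type. The number of arrays limits the precision. The paper and the array labels give 5 cultures, while the series' design text also speaks of triplicate cultures, so the p-values may in part measure technical spread. The script was tested on simulated data in which few genes changed, as many up as down. That test cannot show how the normalization acts where most genes are called, as they were here.

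The named genes were the PIR genes, PIR5, CHS2, MYO1, KEX2, SLT2, RLM1, SWI5, genomic neighbours, the called gene with the largest rise and fall in each list, and the 3 genes most like each PIR gene. Further list members were chosen after their values were seen. Members and lists were chosen with earlier results of these data known. Alternatives covered background correction, normalization, dye, slide, flags, dim genes, spot choice, the threshold and left-out arrays. No sequences are shown, and 1 gene and the lists that turn on it are not reported here.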

Additional observations from a re-analysis of the deposited data

Results flagged for a closer look

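Of 37 named genes, 4 had 1 array far from the other 4 by Dixon's gap over range, a test that flags about 1 in 20 groups by chance, and none of the 4 was a PIR gene. INA1, among the genes most like PIR1, had a log2 ratio of 0.458 on array 4, against 0.905 to 0.958 on the others. The PIR1 ratio was also lowest on array 4. NNR2, among those most like HSP150, had 1.52 on array 1, against 1.94 to 2.08 on the others. GUT2, among those most like PIR3, had 2.66 on array 1, against 3.69 to 3.89. SIC1, for an inhibitor of the cell cycle kinase, had 1.57 on array 1, against 2.11 to 2.30.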

How the results depend on the processing

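Over 22 alternatives the ratios of the 4 PIR genes kept their direction and their side of the threshold in 79 of 88 values. PIR3 ranged from 3.04 to 3.94 on the log2 scale (8.25-fold to 15.3-fold) and HSP150 from 1.06 to 1.99 (2.08-fold to 3.98-fold), and both were called under each alternative. Without loess, and with each array centred on its median, the log2 ratio of PIR1 was 0.15 and no longer called, and the log2 ratio of CIS3 was -0.73, so that 2 PIR genes were called higher and 1 lower, against 3 and 0. PIR3 was above 99.8% of genes, HSP150 above 93.0%, PIR1 above 56.5% and CIS3 above 20.2% under this setting. The same setting turned the log2 ratio of SLT2 to -0.35, a call of lower expression, the log2 ratio of SWI5 to -0.037, the log2 ratio of YKL162C to 0.47 and the log2 ratio of YSA1 to -0.22. It gave 11 GPI genes higher and 6 lower (against 17 and 1), 5 and 10 glucan genes (11 and 5), 5 and 7 pathway genes (9 and 4) and 2 O-mannosylation genes higher (5). The cause was not tested.

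The log2 ratio of CIS3, uncalled at 0.26 (adjusted p = 0.0587), passed the threshold with a dye term (0.21, adjusted p = 0.0337), the slide as a random block (0.25, 0.0404), the slide as the replicate (0.27, 0.0107), the first spot alone (0.33, 0.00939) and the Cy5 arrays alone (0.44, 0.00515). The Cy5 arrays alone, the Cy3 arrays alone and single slides were added after seeing the data. With 1 array left out, CIS3 ranged from 0.16 to 0.37 and was called without array 4 only. On the Cy3 arrays alone it was -0.016 and not called. Its adjusted p over all alternatives ranged from 6.1e-04 to 0.916.

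Of the pathway genes called lower, 1 remained at an adjusted p of at most 0.01 and 2 without array 2, against 4. Of the glucan genes called lower, 3 were so on the Cy3 arrays alone and on slide 3 alone, against 5. No further paired analysis was possible because each array's ratio already pairs both strains and there is 1 group of arrays. Shared slides were fitted as a random block and as the replicate, as given for CIS3 above.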
